A study of Mus musculus with 24 samples.

Results

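The cells described are 12 single burst-forming units-erythroid (BFU-E), out of 24 cells profiled. Among the 19 cells kept for their Klf1 transcript, they are the 6 with the highest and the 6 with the lowest mean level of 6 mitotic messenger RNAs. A BFU-E is a young red cell precursor that can still form large colonies. All 24 came from C57/Bl6J fetal liver at embryonic day 14.5, were depleted on beads of cells bearing lymphoid and myeloid antigens (CD3e, CD45R, CD11b and Ly-6G), the stem and progenitor antigens Sca-1, CD41 and CD16/32 or the red cell antigen Ter119, and were stained for CD117, CD71 and CD24 before single cells were sorted into wells of a plate. No treatment or genotype separates them, no embryo is named for any cell, and no limits of the sort gates were at hand. The transcripts were copied by Smart-seq2, which amplifies polyadenylated RNA along its length without molecular identifiers.

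The groups were chosen by measured values of these same libraries. Cells with Klf1, an erythroid transcription factor, at 10 CPM (a gene's count scaled to a common library total) or more were kept, which left 19 of 24. These were ranked by the mean log2(CPM + 1) of 6 genes, Ccnb1, Ccnb2, Cdc20, Cdk1, Plk1 and Aurka. The top 6 are called high cells (numbers 16, 12, 6, 18, 21 and 7 in rank order), the bottom 6 low cells (5, 17, 22, 2, 3 and 10) and the 7 between them middle cells. Around the upper limit the ranking score was 7.28 in cell 7, the last high cell, and 6.92 in cell 11, the first middle cell. Around the lower limit it was 5.71 in cell 8 and 5.52 in cell 5. Because the labels name no embryo, the cells count as 1 sample, and neither a p-value nor a standard error is given. Every difference below describes these 12 cells only.

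Cyclin B, made from Ccnb1 or Ccnb2, activates the kinase CDK1 to drive a cell into mitosis, and the kinases PLK1 and Aurora A (Aurka) help to set up the spindle. At the end of metaphase CDC20 turns on the anaphase-promoting complex, a ubiquitin ligase that marks cyclin B for destruction. Genes of this programme are known to be silent in G1 and active in G2 and mitosis. Their promoters often carry CCAAT boxes, bound by NF-Y, and a cell cycle genes homology region (CHR), bound by the DREAM and MuvB complexes. Fetal liver erythroid progenitors are a fast-dividing population, so cells caught at one moment lie at different points of the cycle.

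The promoters of the 6 ranking genes and of Ube2c and Top2a, which are described below, are shown because these elements are the known link between the genes. Each stretch is RefSeq sequence of GRCm38.p6, read 5′ to 3′ on the gene's own strand, and lies before the RefSeq start site. Bases inside an annotated protein-coding first exon were limited to 30. Capitals mark a CHR (TTTGAA or TTTAAA, or TTCAAA where it lies on the other strand), a CCAAT box (ATTGG on the other strand) or an E2F element (1 match, TTTCGCGC). The positions are Ccnb1 chr13:100786541-100786690, Ccnb2 chr9:70421555-70421704, Cdc20 chr4:118437344-118437493, Cdk1 chr10:69352913-69353062, Aurka chr2:172370571-172370680 and Top2a chr11:99024190-99024339 on the minus strand, and Plk1 chr7:122159285-122159434 and Ube2c chr2:164769778-164769927 on the plus strand.
Ccnb1: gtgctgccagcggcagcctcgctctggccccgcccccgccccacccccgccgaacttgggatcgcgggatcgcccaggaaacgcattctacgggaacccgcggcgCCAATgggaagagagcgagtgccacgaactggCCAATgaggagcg
Ccnb2: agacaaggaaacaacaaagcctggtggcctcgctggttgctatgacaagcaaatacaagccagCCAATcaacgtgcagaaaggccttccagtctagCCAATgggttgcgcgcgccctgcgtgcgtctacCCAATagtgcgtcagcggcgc
Cdc20: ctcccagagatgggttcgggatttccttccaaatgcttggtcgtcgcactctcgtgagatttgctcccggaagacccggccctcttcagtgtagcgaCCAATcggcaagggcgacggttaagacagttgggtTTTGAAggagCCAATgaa
Cdk1: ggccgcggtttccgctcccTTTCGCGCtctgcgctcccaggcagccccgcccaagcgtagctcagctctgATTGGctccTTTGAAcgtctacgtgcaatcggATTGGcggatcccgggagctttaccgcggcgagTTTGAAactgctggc
Plk1: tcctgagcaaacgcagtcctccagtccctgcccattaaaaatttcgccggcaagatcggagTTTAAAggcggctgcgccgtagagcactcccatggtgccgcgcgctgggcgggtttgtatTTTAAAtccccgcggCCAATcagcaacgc
Aurka: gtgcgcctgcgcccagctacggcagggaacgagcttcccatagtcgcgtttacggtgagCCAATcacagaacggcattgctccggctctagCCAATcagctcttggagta
Ube2c: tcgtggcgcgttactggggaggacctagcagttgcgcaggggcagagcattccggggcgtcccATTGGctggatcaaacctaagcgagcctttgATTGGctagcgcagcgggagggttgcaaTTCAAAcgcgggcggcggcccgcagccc
Top2a: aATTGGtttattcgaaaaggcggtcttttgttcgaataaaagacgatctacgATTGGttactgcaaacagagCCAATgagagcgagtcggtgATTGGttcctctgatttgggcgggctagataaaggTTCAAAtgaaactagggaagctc

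All 6 ranking genes had a CHR and a CCAAT box somewhere in the full window of 250 bases before to 50 after the start, and 5 of 6 had at least 2 CCAAT boxes. The CHR of Ccnb1 at -42, those of Ccnb2 at -167 and 5, and those of Aurka at 18 and 33 lie outside the printed stretches. So do the TTTGAA of Plk1 at 31 and that of Top2a at -179. Both strands were searched, and TTTAAA reads the same on both. In the 5856 protein-coding genes compared that have a RefSeq window, out of 7218, a CHR occurred in 18.9% and a CCAAT box in 39.8%. In all 32851 windows of the RefSeq table the shares were 27.6% and 37.4%. The longer CDE-CHR form, in which a second element stands a fixed distance before TTTGAA, was in the windows of Ccnb2, Cdk1 and Plk1 and in 0.341% of those protein-coding genes. An E2F element (TTTGGCGC, TTTCCCGC, TTTGCCGC or TTTCGCGC) was in Cdk1 alone among the 6, and in 5.17% of the background.

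**Figure D1:**
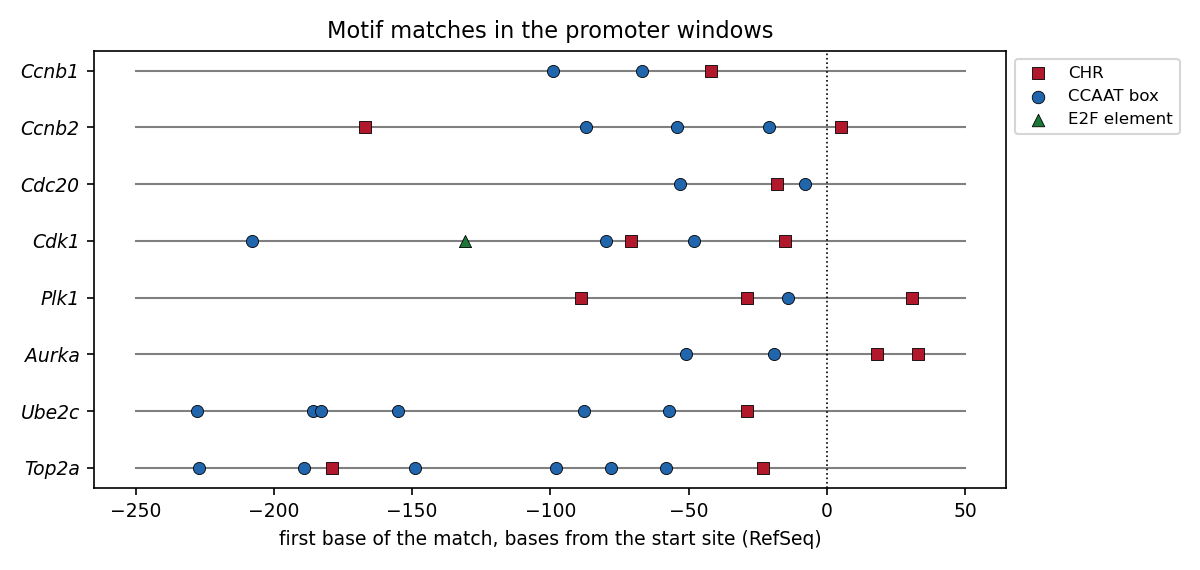
Motif matches in the RefSeq promoter windows of 8 genes. The x axis is the distance of the first base of a match from the start site, squares are CHR matches, circles CCAAT boxes and the triangle the E2F element; most CCAAT boxes lie upstream of the start, and each gene holds at least 1 CHR.

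The 6 genes contributed unequally to the grouping. Plk1 and Aurka carried 31.2% and 23.2% of the variance of the score over the 19 kept cells, Cdk1 16.2%, Cdc20 15.4%, Ccnb1 13.2% and Ccnb2 0.792%. These values chose the cells and are given as a description. Aurka was 337, 269, 88.3, 97.4, 167 and 106 CPM in the high cells in rank order and 7.25, 0, 0.870, 0.675, 101 and 2.07 CPM in the low cells. Low cell 3 had more Aurka than high cells 6 and 18, and the other 5 low cells had at most 7.25 CPM. Plk1 was 388, 392, 172, 392, 55.7 and 97.0 CPM in the high cells and 82.8, 0.652, 0.870, 0, 1.76 and 0.690 CPM in the low cells. Low cell 5 lay above high cell 21, and the other low cells had at most 1.76 CPM. Where no read was counted, a level of 3 counts is still possible, in these 12 cells between 1.39 and 2.64 CPM.

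The cyclins and their kinase behaved differently from each other. Ccnb1 was 572, 479, 136, 311, 165 and 180 CPM in the high cells and 1.04, 179, 113, 2.70, 107 and 105 CPM in the low cells, so the groups overlapped and low cells 5 and 2 were near 0. Cdk1 was 798, 814, 155, 225, 164 and 392 CPM against 236, 203, 3.48, 85.1, 1.76 and 125 CPM. In both genes cells 16 and 12 stood above the other high cells. Ccnb2 was 684, 666, 438, 237, 540 and 123 CPM in the high cells and 257, 295, 564, 383, 723 and 240 CPM in the low cells. The low cells therefore held as much Ccnb2 as the high cells, and the difference of mean log2(CPM + 1) was 0.02. Cdc20, the anaphase activator, was 1124, 400, 1076, 74.2, 222 and 154 CPM against 107, 322, 419, 739, 0 and 2.07 CPM. Elovl1 overlaps Cdc20 on the other strand. Over the bases they share, reads of these genes cannot be told apart, because the libraries keep no strand.

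Each ranking gene was also read with the cells ranked by the other 5, so that it did not help to choose them. The difference of means on the log2(CPM + 1) scale between the top 6 and the bottom 6 was then 3.62 for Plk1, 2.97 for Cdk1, 2.18 for Cdc20, 1.97 for Aurka, 1.84 for Ccnb1 and 0.02 for Ccnb2. With all 6 genes in the ranking, Plk1 had differed by 5.91 and Aurka by 5.12. None of the 6 genes separated the groups without overlap under this ranking. For Aurka, 4 of the 6 high cells stayed in the top 6 when it was left out.

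**Figure D2:**
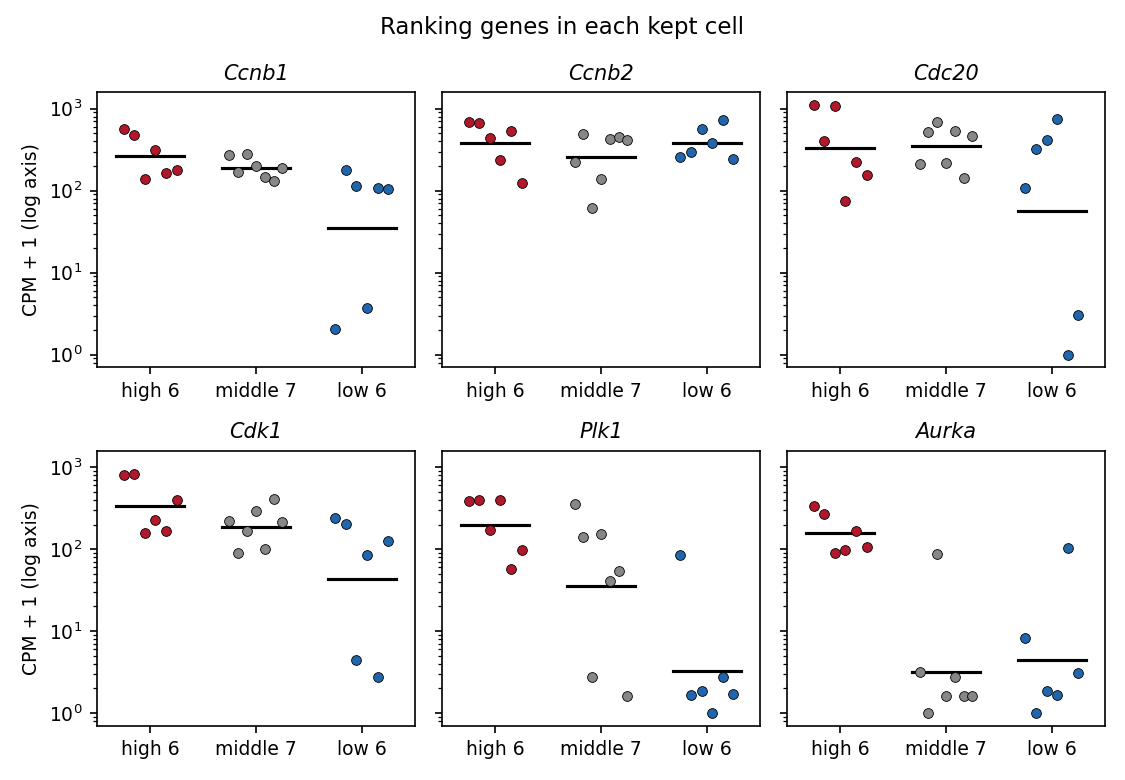
CPM + 1 of the 6 ranking genes on a log axis in each of the 19 kept cells, with high, middle and low cells in rank order from left to right and the bar at the mean of log2(CPM + 1). Plk1 and Aurka are near 0 in most low cells, while Ccnb2 lies between 240 and 723 CPM in all 6 low cells.

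The high cells were somewhat deeper. Total counts were 1358306 to 2155010 in high cells and 1135880 to 1931985 in low cells, and the median number of genes with at least 5 counts was 6462 against 5855.5. After every kept cell was thinned to 1135880 counts the medians were 6251.5 and 5698, and the same 6 cells fell in each group. Mitochondrially encoded genes took 2.36% to 4.50% of counts in high and 3.01% to 4.38% in low cells. Every cell's title carries the same mark, Set2. The digit of the well name, as in A1, was taken as the plate column. Of the high cells 2 came from plate column 1 and 4 from column 3, and of the low cells 2, 3 and 1 from columns 1, 2 and 3. Over the 7667 genes compared, those with 5 or more counts in at least 6 kept cells, the median difference was 0.22 on the log2(CPM + 1) scale and 60.0% were higher in the high cells, so lists are read beside that value. The part of depth in the differences was not tested beyond thinning, which gave a median of 0.23 over all genes.

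Genes of mitosis outside the ranking were higher in the high cells in most of their branches. Of the 149 genes in 6 lists, 144 passed the filter, and their median difference was 0.86 on the log2(CPM + 1) scale. Of these, 114 were higher in the high cells (79.2%, beside 60.0% of all genes). By 1 or more, 68 were higher (47.2%) and 7 lower (4.86%). Among all genes compared 27.4% were higher and 12.7% lower by that much. As a share of all counts the 144 genes took 2.98% in the pooled high cells, 2.52% in the middle cells and 2.31% in the low cells. The exact binomial 95% interval for the high cells was 2.97% to 2.99%. It covers counting error only, treats reads as independent and leaves out the spread between cells. In single cells the share ran from 2.402% to 3.76% in the high and from 1.65% to 2.52% in the low group, so the groups overlapped. The lists were chosen with earlier results of these data in view, and the filter let in genes present only in high cells. Within plate column 1, 2 high against 2 low cells, the median of these lists was 1.10, and within column 3 it was 1.56, where the only low cell was cell 3, the lowest of the 12 on these lists. Medians within a plate column, here and below, are not set beside those of all genes in the same cells. They therefore hold any shift of all genes there. Among the 124 members detected in at least 4 of the 7 middle cells, which the contrast does not use, the median was 0.81.

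A gene is called detected in a cell at 5 or more counts. The spindle list, which covers spindle proteins, motors and cytokinesis, had a median of 1.63. In the high cells 30 of 34 genes compared were higher (88.2%, beside 60.0% of all genes) and 20 by 1 or more (58.8%, beside 27.4%). Tpx2, which brings Aurora A to the spindle, was 418, 266, 420, 94.2, 168 and 76.5 CPM in the high cells and 203, 0, 140, 31.7, 0 and 11.7 CPM in the low cells. It was in every high cell and at 0 in 2 low cells, with a difference of 3.70. Ckap2l, a spindle protein, differed by 3.67 and Nusap1, a microtubule bundler, by 3.48. The smallest difference of the list was that of Cep55, an abscission protein, at -1.01, and it was detected in 2 cells of each group. Kif4, a chromosome-bound motor chosen after its values were seen, was 155 and 144 CPM in cells 16 and 12 and between 0 and 21.8 CPM in the other high cells. Nusap1 shares bases with Oip5, Kif4 with Pdzd11 and Ckap2l with Gm14024 on the other strand. Leaving out Plk1 from the ranking gave a list median of 0.96.

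The kinetochore and checkpoint list had a median of 1.31, with 30 of 38 genes higher (78.9%, beside 60.0% of all genes). By 1 or more, 21 were higher (55.3%, beside 27.4%) and 3 lower (7.89%, beside 12.7%). Cenpe, the motor that carries chromosomes to the spindle equator, was 318, 192, 99.5, 83.5, 40.1 and 74.6 CPM in the high cells and 128 CPM in low cell 5. The other 5 low cells had 0 counts of Cenpe, and the difference was 5.59, the largest of the list. Bub1, a checkpoint kinase, was 118, 120, 54.6, 148, 95.2 and 129 CPM against 1.55, 0, 237, 51.3, 0 and 0 CPM. Low cell 22 thus had more Bub1 than any high cell. Aurkb, the kinase of the chromosomal passenger complex and also chosen after its values were seen, was 55.1 to 708 CPM in the high cells with a median of 236, and 0.870 to 233 CPM in the low cells with a median of 87.4. At the other end stood Nsl1, a subunit of the kinetochore's MIS12 complex, with a difference of -2.90. It was detected in 2 high and 5 low cells, and Gm38188 overlaps it on the other strand. Without low cell 3, whose score on the list was the lowest, the list's median was 0.68.

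Among the anaphase-promoting complex and its regulators, Ube2c followed the ranking most closely. Ube2c, the ubiquitin-conjugating enzyme that starts chains for the complex, was 1204, 456, 241, 386, 210 and 234 CPM in the high cells and 10.4, 0.652, 33.9, 42.5, 77.5 and 15.2 CPM in the low cells. Every high cell exceeded every low cell, and the middle cells ran from 42.2 to 303 CPM. Its Spearman rho with the ranking score over the 19 kept cells was 0.84, as a description of cells whose libraries also differ in depth. That was the highest among the genes compared, passing over predicted models, pseudogenes and genes without a symbol. Tnnc2 overlaps Ube2c and Rpl28 overlaps Ube2s on the other strand. The separation without overlap held under each single-gene omission from the ranking except that of Aurka, and it did not hold with 8 cells in each group. Ube2s, which lengthens the chains, differed by 2.90 and Anapc7, a subunit of the complex, by 3.54. The list's median was 1.30, and 0.83 with Plk1 left out of the ranking. Of its 17 genes 15 were higher (88.2%, beside 60.0% of all genes) and none lower by 1 or more (beside 12.7%). Anapc11, the catalytic RING subunit, had the smallest difference at -0.50.

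The genes of mitotic entry, without the 6 ranking genes, had a median of 1.71, and 15 of 19 were higher (78.9%, beside 60.0% of all genes). Without low cell 22 this median was 1.06, and with Plk1 or Aurka left out of the ranking it was 0.91 or 0.94. Hmmr, a spindle assembly factor, was 218, 147, 51.2, 67.7, 140 and 146 CPM in the high cells and 1.55, 45.0, 0.870, 74.3, 0 and 0 CPM in the low cells. Its lowest high cell lay under the highest low cell. Bora, the cofactor by which Aurora A activates PLK1, differed by 3.34, and Pbk, a mitotic kinase, by 3.28. Ensa, an inhibitor of the phosphatase PP2A-B55 that is switched on at mitotic entry, differed by -1.72. High cell 18 had no count of Ensa and the other 5 had 49.3 CPM or more.

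Chromosome condensation and cohesion genes had a median of 0.26 beside 0.22 for all genes. By 1 or more, 4 of 26 were higher (15.4%), a smaller share than the 27.4% of all genes compared. The median ran from 0.11 without high cell 12 to 0.54 without high cell 7, and was 0.02 without cells 16 and 12 and -0.10 within plate column 1. Top2a, the topoisomerase that untangles sister chromatids, had the largest difference. It was 970, 965, 60.0, 570, 460 and 551 CPM in the high cells and 343, 281, 0, 20.3, 0 and 42.8 CPM in the low cells, a difference of 4.41. High cell 6 was the only high cell in the range of the low cells. Cdca2, which targets a phosphatase to chromatin, differed by 3.30, Cdca5 (sororin, a cohesin protector) by 2.87 and Wapl, which releases cohesin, by -1.54. Mki67, which coats mitotic chromosomes, was 359, 341, 41.0, 261, 76.6 and 145 CPM against 38.8, 177, 49.6, 83.0, 102 and 166 CPM, with wide overlap and a difference of 0.81.

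The transcription factors of G2 and M genes gave a median of 0.45 over 10 genes, with 7 higher (70.0%, beside 60.0% of all genes). Mybl2 (B-MYB), which joins MuvB on CHR promoters, was detected in 6 high and 4 low cells and differed by 2.88. Foxm1, the forkhead factor that follows B-MYB and was chosen after its values were seen, was detected in 3 high, 2 middle and 1 low cell; it shares bases with Tex52 and Gm44596 on its own strand. Nfyc, a subunit of NF-Y, differed by 2.42, Lin9 of MuvB by 1.96, and Nfya, another NF-Y subunit, by -1.05 with detection in 1 high and 2 low cells. The list's median moved with single cells, from -0.06 without low cell 2 to 1.39 without high cell 6, and it was 0.13 without cells 16 and 12.

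**Figure D3:**
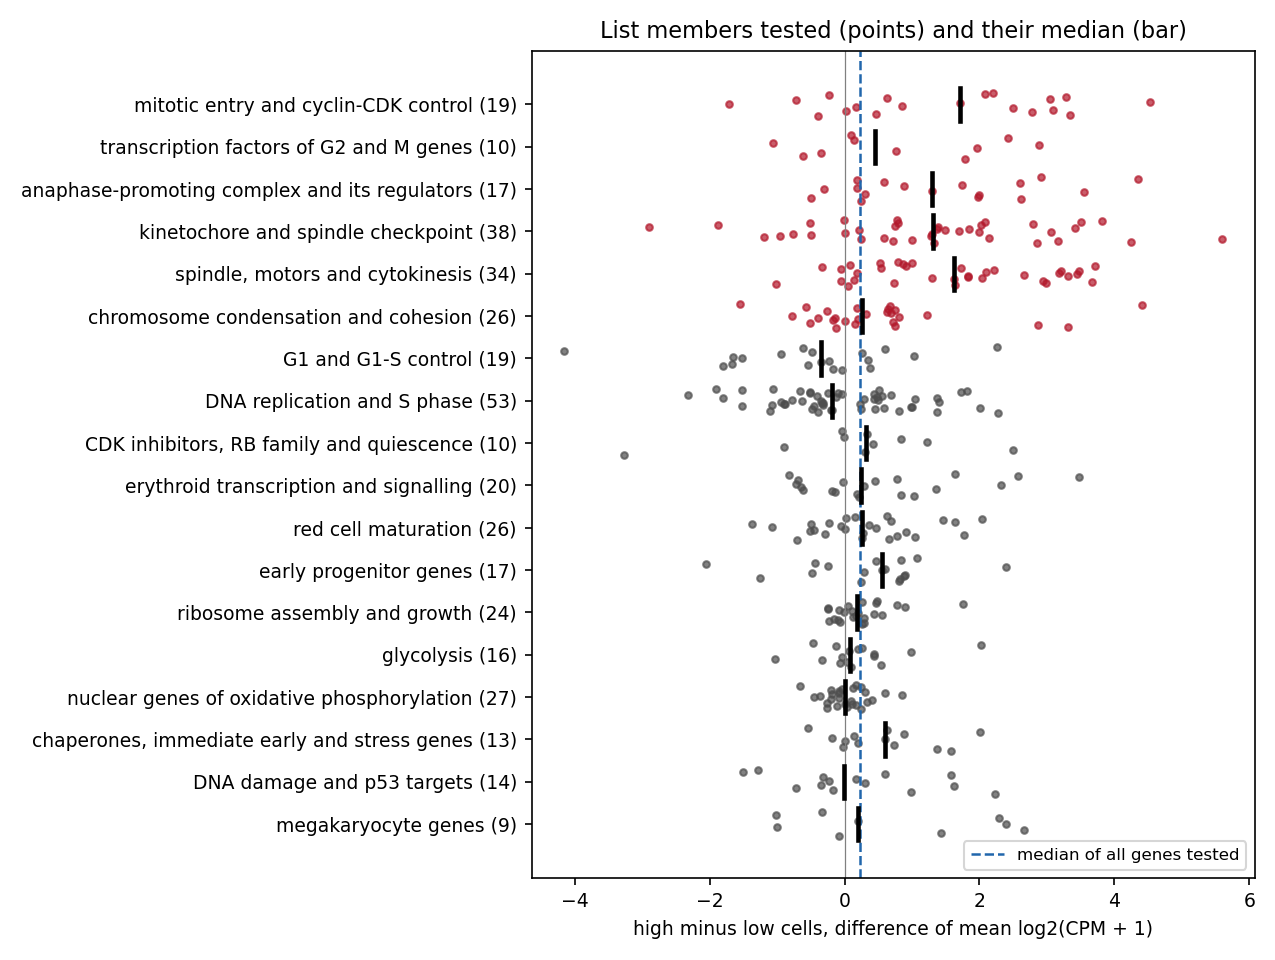
Differences of mean log2(CPM + 1), high minus low cells, for each gene compared (points) in the lists with at least 9 such genes, with the number of genes in brackets; red points are the 6 mitosis lists, bars are list medians and the dashed line is the median of all 7667 genes, 0.22. Of the medians drawn, those of the spindle, entry, kinetochore and anaphase-promoting complex lists lie above 1, and those of G1 and of S phase genes lie below 0.

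The same elements were counted in the promoters of the mitosis lists. Of the 144 genes 116 had a RefSeq window, and a CHR was present in 51.7% of these, beside 18.9% of protein-coding genes compared. At least 2 CCAAT boxes occurred in 37.1%, beside 16.5%. The CCAAT share was not particular to mitosis genes. Of the 53 genes of the DNA replication list described below, 40 had a window, with at least 2 CCAAT boxes in 18 and a CHR in 9. The spindle list had a CHR in 18 of 28 windows and the kinetochore list in 19 of 32, while the anaphase-promoting complex list had one in 4 of 16, Ube2c among them. A match is a description of letters and not of binding.

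Genes of G1 and of the start of S phase lay on the other side of zero. Their list had a median of -0.36, with 6 of 19 genes higher in the high cells (31.6%, beside 60.0% of all genes). By 1 or more, 2 were higher (10.5%, beside 27.4%) and 5 lower (26.3%, beside 12.7%). The sign of the median turned to 0.05 with Aurka left out of the ranking and to 0.87 within plate column 1, while within column 3 it was -0.26. The values within columns hold any shift of all genes there. Orc1, the largest subunit of the origin recognition complex, was 0, 0, 2.44, 0, 0.599 and 0 CPM in the high cells and 101, 0, 0, 84.4, 154 and 127 CPM in the low cells. It was thus near 0 in all 6 high cells and in 2 low cells. Cdt1, a licensing factor chosen after its values were seen, was 107, 0.736, 119, 139, 196 and 338 CPM against 318, 201, 19.1, 379, 438 and 545 CPM, with a difference of -1.52 that was -0.43 without high cell 12. Skp2, a ubiquitin ligase subunit that marks the CDK inhibitor p27 for destruction, had the largest positive difference at 2.26. Its highest value among the 12 cells, 269 CPM, was in low cell 5. Skp2 overlaps Lmbrd2 and Orc1 overlaps Gm12743 on the other strand, and Cdt1 shares bases with Gm20388 on its own.

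The DNA replication list had a median of -0.19 over 53 genes, and 23 were higher in the high cells (43.4%, beside 60.0% of all genes). Mcm3 and Mcm4, subunits of the replicative helicase and named after their values were seen, differed by -0.90 and -0.89, and Mcm3 by -0.59 without high cell 12. Mcm4 was 223, 207, 255, 361, 523 and 508 CPM in the high cells and 643, 857, 581, 606, 329 and 710 CPM in the low cells. All 6 high cells had less Mcm4 than 5 of the 6 low cells, and low cell 3 lay among the high cells. Rfc3, a clamp loader subunit, differed by -2.33, Cdc45, a helicase cofactor that overlaps Ufd1, by 2.27 and Pcna, the sliding clamp, by -0.35. The share of counts in S phase genes was 1.30% in the pooled high cells, 1.59% in the middle and 1.56% in the low cells. The sign of the list's median rested on few cells: it was 0.37 without cells 16 and 12, 0.01 without high cell 6 and 0.02 without low cell 17.

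Read cell by cell, cells 16 and 12 were highest on the mitosis genes and, with low cell 22, lowest on S phase genes. A list score was taken as the mean log2(CPM + 1) of the list's genes minus that of all genes compared in the same cell. On the mitosis lists together it was 1.84 in cell 16, 2.07 in cell 12, 0.60 in cell 6, 1.59 in cell 18, 1.06 in cell 21 and 1.09 in cell 7. In the low cells it was 0.91, 0.62, 0.89, 0.45, -0.22 and 0.36 in rank order, so cell 6 was the only high cell under the highest low cell. On S phase genes cells 16 and 12 scored 1.21 and 1.48, low cell 22 scored 1.23, and the other 9 cells scored between 2.09 and 3.24. The 7 middle cells scored 2.38 to 2.99 on S phase and 1.55 to 2.28 on G1-S genes. Without cells 16 and 12, an omission chosen after their values were seen, the mitosis median was 0.74 beside 0.25 for all genes.

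The 5 cells with Klf1 under 10 CPM took no part in the ranking and give a view of the same genes in other cells. Their ranking scores were 7.63 in cell 23, 6.79 in cell 1, 6.51 in cell 24, 4.22 in cell 9 and 0.75 in cell 19. Their scores on the other mitosis genes were 1.09, 0.82, 0.95, -0.29 and -0.35 in the same order. The 3 cells with more ranking transcripts thus also had more of the other mitosis transcripts than the remaining 2.

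**Figure D4:**
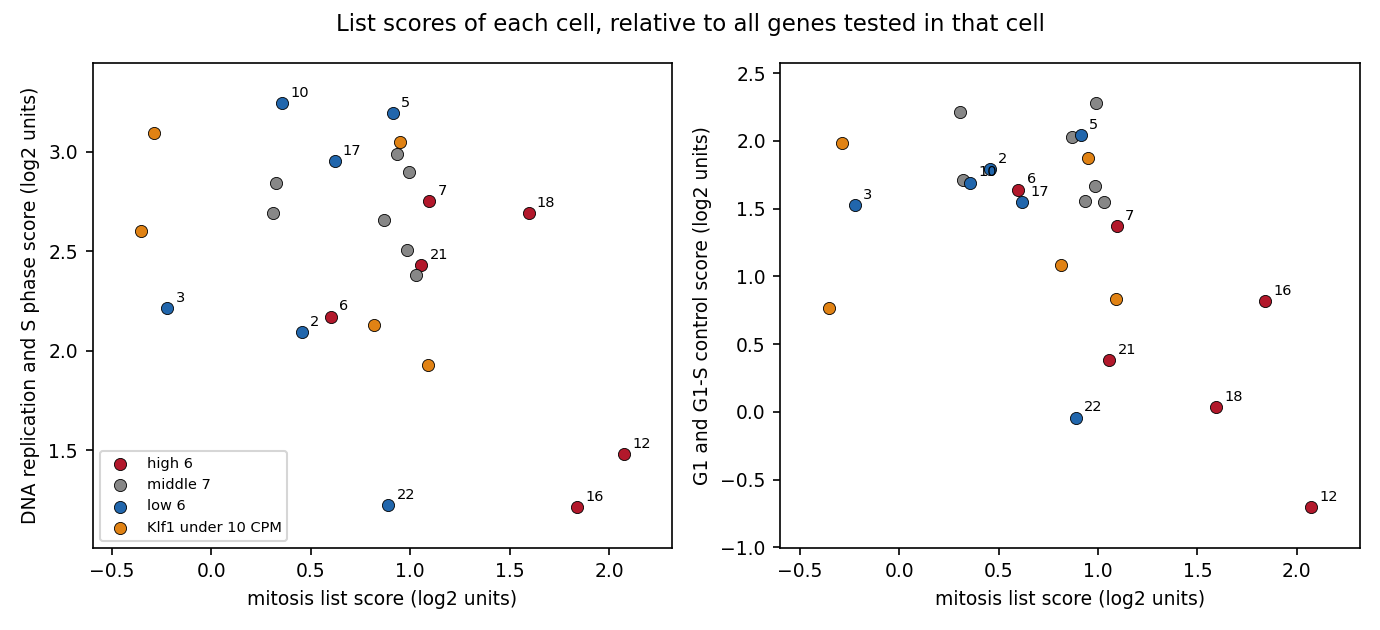
Score of each of the 24 cells on the mitosis lists (x axis) against its score on S phase genes (left) or G1 and G1-S genes (right), all in log2 units relative to all genes compared in that cell; colours give the group and numbers the high and low cells. Cells 16 and 12 have the highest mitosis scores, 1.84 and 2.07, with S phase scores of 1.21 and 1.48, while low cell 22 has an S phase score of 1.23 with a mitosis score of 0.89.

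Beyond the lists few genes separated the groups completely. In 12 of 7667 genes, 0.157%, every high cell exceeded every low cell, and in 4 genes, 0.0522%, every high cell was lower. With 1 of the 12 cells left out in turn, which leaves fewer cells to separate, the counts were 19 to 31 and 6 to 15. The genes themselves depended on the ranking: without Aurka, 1 of the 12 and 1 of the 4 still separated the groups, without Plk1 5 and 0, and with all 24 cells ranked 1 and 0. The 2 mitosis list members among the 12 genes were Ube2c and Arl6ip1. Arl6ip1, a protein that shapes the endoplasmic reticulum, was 952, 525, 328, 218, 301 and 249 CPM in the high cells and 172, 111, 138, 29.0, 215 and 174 CPM in the low cells, with a difference of 1.63. Safb, a chromatin and RNA binding protein, was 141, 163, 281, 215, 282 and 224 CPM against 43.0, 75.6, 6.09, 83.7, 48.4 and 55.9 CPM, detected in every cell. Gtf2f1, a subunit of the general transcription factor TFIIF, differed by 1.36. Mcrs1, a spindle assembly and chromatin protein, and Bud31, a splicing factor, also separated the groups; they fall outside the naming rule, were named after their values were seen, and differed by 1.29 and 0.77.

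The other genes among the 12 were low and often at 0. Tor2a, a torsin ATPase of the nuclear envelope, was 48.5 to 120 CPM in the high cells, 41.1 CPM in low cell 17 and at most 0.675 CPM in the other low cells; it overlaps Ttc16 on the other strand. Rtel1, a helicase of telomeres and replication, was 43.4, 2.21, 160, 75.6, 69.4 and 0.622 CPM against at most 0.518 CPM in the low cells. High cell 7 and low cell 5 held 1 count each, so their order rests on the library totals. Gas2l1, which links actin and microtubules at centrosomes, and Xndc1 had no count in any low cell and means of 36.0 and 22.8 CPM in the high cells. These means were 16.8-fold and 10.7-fold the floor of 3 counts per low cell. That floor covers counting error only, so the folds are not lower bounds. Gas2l1 was at 1 count in high cells 6 and 7. Tbc1d31, a centrosomal protein, and Glt8d1, a glycosyltransferase, differed by 4.04 and 3.12. Gas2l1 overlaps Rasl10a and Glt8d1 overlaps Spcs1 on the other strand, and Xndc1 shares bases with Xntrpc and Trpc2 on its own strand.

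Of the 4 genes lower in every high cell, Anxa7 was the most evenly measured. Anxa7, an annexin that binds membranes with calcium, was 42.4, 89.1, 74.2, 76.6, 153 and 129 CPM in the high cells and 346, 181, 428, 425, 215 and 266 CPM in the low cells. Its middle cells ran from 74.3 to 268 CPM and its rho with the ranking score was -0.76. Vac14, a scaffold of the kinase that makes PI(3,5)P2, was 56.3, 0, 73.7, 0.464, 0 and 11.8 CPM against 74.3 to 201 CPM. Efr3a, which anchors a lipid kinase at the plasma membrane, was 0 to 34.1 CPM in the high cells, 44.6 to 134 CPM in the low cells and 78.4 to 220 CPM in the middle cells, so the middle cells were as high as the low ones. Its reads may include those of Gm20405 on the same strand. The fourth, Llph-ps2, is a processed pseudogene outside the naming rule that was named after its values were seen; its reads may come from its parent gene, and it differed by -1.55.

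A gene can follow the ranking over all 19 kept cells without separating the groups. Idh2, a mitochondrial isocitrate dehydrogenase, was 134, 105, 135, 230, 359 and 240 CPM in the high cells and 461, 344, 242, 689, 394 and 608 CPM in the low cells. Its rho of -0.77 was the lowest, with predicted models, pseudogenes and genes without a symbol again passed over. High cell 21 lay above low cells 17 and 22, and the other 5 high cells lay below every low cell. Hist1h2bc, a histone H2B gene with a polyadenylated form, had a rho of -0.69 and was detected in 3 high and 6 low cells. Coil, the scaffold of Cajal bodies, had a rho of -0.67. At the other end, after Ube2c, came Gas2l1 (0.79), Xndc1 (0.77), Cenpe (0.77) and Lin28b (0.75), a fetal regulator of let-7. Lin28b was 26.7 CPM or more in each high cell, 40.9 CPM in low cell 22 and 0 in the other 5 low cells.

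**Figure D5:**
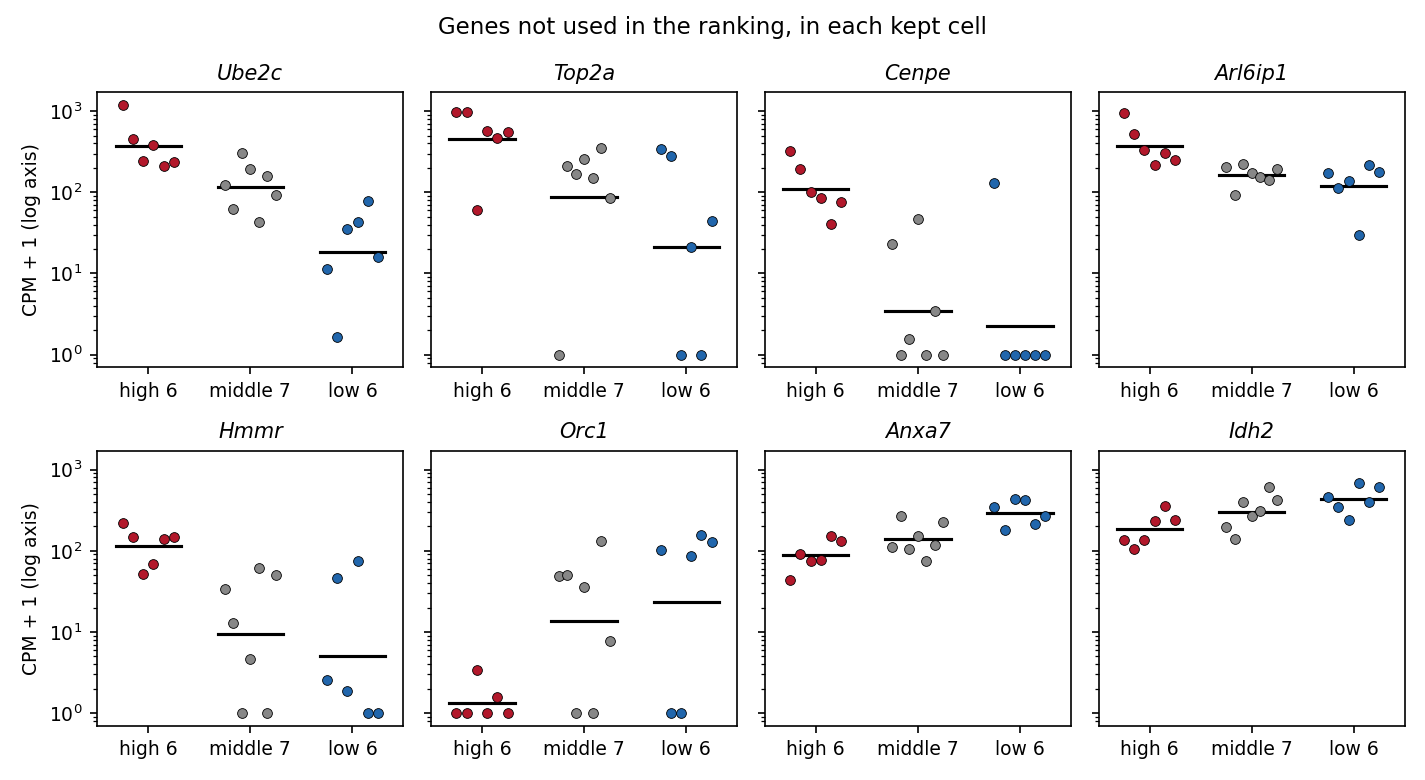
CPM + 1 on a log axis of 8 genes that took no part in the ranking, in each of the 19 kept cells in rank order, with bars at the mean of log2(CPM + 1). Ube2c and Arl6ip1 are higher and Anxa7 lower in every high cell than in any low cell; Cenpe is at 0 in 5 of 6 low cells and Orc1 is under 3 CPM in all 6 high cells.

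Erythroid genes overlapped between the groups. Klf1 was 314 to 887 CPM in the high cells and 32.4 to 903 CPM in the low cells, with low cell 10 the lowest of the 12. Gata1, the master regulator of the lineage, was 288 to 483 CPM against 188 to 493 CPM. Kit, the receptor for stem cell factor, differed by -0.48 and Myc by 0.45, with overlap in both. The erythroid transcription list had a median of 0.25 and the red cell maturation list one of 0.26, beside 0.22 for all genes. Leaving out single cells moved the first from 0.12 (without low cell 22) to 0.43 (without high cell 12) and the second from 0.10 (without high cell 7) to 0.55 (without high cell 16). Car1, a carbonic anhydrase of early red cells, ran from 21.8 to 5252 CPM in the high cells and from 0 to 1248 CPM in the low cells. The early progenitor list had a median of 0.56 over 17 genes, which was -0.14 without cells 16 and 12 and -0.11 when Ccnb1 or Cdc20 was left out of the ranking. Leaving out single cells gave 0.10 (without low cell 2) to 0.62 (without high cell 21). Ptpn18, a phosphatase, had its smallest difference at -2.05.

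Growth, energy and stress genes gave small medians. They were 0.19 for ribosome assembly, 0.07 for glycolysis, 0.01 for nuclear genes of oxidative phosphorylation and -0.0027 for DNA damage and p53 targets. The chaperone and stress list stood at 0.59 over 13 genes, and its median moved with single cells, from 0.17 without low cell 22 to 0.68 without high cell 12. The CDK inhibitor and quiescence list had a median of 0.32 with only 10 of 19 genes compared, and ran from 0.13 without low cell 3 to 0.51 without low cell 5. Cdkn1b, which encodes p27, was 110 CPM in high cell 12 and 4.18 to 13.2 CPM in the other high cells, and at most 10.9 CPM in the low cells. Btg1, an anti-proliferative gene, had a difference of -3.26 and was detected in 2 high and 5 low cells.

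Markers of other lineages were counted in the same cells. The 20 megakaryocyte genes summed to 282 to 2569 CPM in the high cells and 371 to 2085 CPM in the low cells. The highest sums were in high cells 12 and 16, with 2569 and 2086 CPM, and in low cell 10, with 2085 CPM. The 19 myeloid genes summed to 54.7 to 794 CPM in the high and 223 to 1922 CPM in the low cells, and Mpo, the defining granule enzyme, was at most 4.98 CPM in the high cells and reached 269 CPM in low cell 3. The 12 hepatocyte genes summed to at most 106 CPM in the high cells and reached 1389 CPM in low cell 10. Of the 12 macrophage genes 11 were at 0 in every high cell and 11 in every low cell. For the 9 mast cell genes this number was 7 and 7, for the 13 lymphoid genes 11 and 10, and for the 13 endothelial and stromal genes 11 and 9. Summed levels reached 115, 429, 185 and 98.7 CPM in the high cells and 1.74, 388, 76.5 and 116 CPM in the low cells for these 4 lists. The part of these transcripts in the differences was not tested.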

How the data were processed

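Each of the 24 cells has a column of raw read counts per gene in a table deposited by the authors. The reads were aligned with STAR 2.4 to GRCm38 and counted with featureCounts, per the submitters' processing notes, and the libraries were not stranded, per the labels' protocols. Counts were divided by the column total to give CPM, and gene identifiers were matched to GENCODE M21 symbols for 49326 of 49585 genes; the other 259 held 0.0295% of counts. Reads without molecular identifiers are not independent molecules, so intervals and floors cover counting error only.

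The 7667 genes compared had 5 or more counts in at least 6 kept cells and exclude the 6 ranking genes. Differences are of means of log2(CPM + 1). The added 1 shrinks differences between low levels, while cells at 0 can enlarge the difference of a gene that is high in other cells. Pbk, for example, differed by 3.28 with mean levels of 183 CPM in the high and 137 CPM in the low cells. The cells, the gene lists and the rules were chosen with earlier results of these data known. Named genes were the ranking genes, 7 set markers, the 3 largest and 1 smallest difference of each mitosis list, the highest and lowest of each other list, the 10 largest differences each way among genes without overlap, and the 5 highest and 5 lowest Spearman correlations with the score, passing over predicted models and pseudogenes. Others are said to be named after their values were seen. One gene that the rule covers is not reported here. Exact binomial (Clopper-Pearson) intervals are at 95%. Promoters were searched in the RefSeq GRCm38.p6 table. Alternatives changed scaling (TMM of edgeR 4.0.16, DESeq2 1.42.0 size factors), depth, pseudocount, filter, group size, Klf1 threshold, ranking and cells. The contrast was tested on simulated data. Python 3.11.15, numpy 2.4.6, pandas 2.3.3, scipy 1.17.1 and R 4.3.3 were used.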

Additional observations from a re-analysis of the deposited data

Results flagged for a closer look

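Within the 6 high or the 6 low cells, 36 of 230 groups of values, 4 list scores and 32 gene levels, had a highest or lowest cell whose gap to the next one passed Dixon's 95% criterion for 6 values. Chance alone gives about 1 in 20 groups, many genes here are at or near 0 in most cells, and the genes were chosen for large differences, so no more is read from the number.

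Low cell 5 stood above the other low cells in Plk1 at 82.8 CPM, Cenpe at 128 CPM, Cdca2 at 133 CPM and Rtel1 at 0.518 CPM, and below them in Nsl1 at 0. Low cell 22 was the highest low cell for Spdl1, a checkpoint protein, at 188 CPM, Lin28b at 40.9 CPM and Foxm1 at 29.6 CPM. The same cell was the lowest for Safb at 6.09 CPM, for Cdt1 at 19.1 CPM and for the G1-S list score at -0.042. Low cell 3 was lowest on the kinetochore list, with a score of -1.41, and for Mad2l1, a checkpoint protein named after its values were seen, at 4.40 CPM. Low cell 10 had the lowest red cell maturation score at -0.57 and the highest hepatocyte score at 1.56, with Klf1 at 32.4 CPM and Rrs1, a ribosome assembly factor, at 0.690 CPM. Low cell 2 had no count of Car1 or Btg1 (both 0), the lowest Arl6ip1 at 29.0 CPM and the highest Gp9, a platelet glycoprotein, at 4.05 CPM. Low cell 17 alone held Tor2a above a trace, at 41.1 CPM.

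High cell 6 was the lowest high cell for Top2a at 60.0 CPM, Ckap2l at 1.46 CPM, Nusap1 at 0 and Atm, the DNA damage kinase, at 0, and the highest for Phlda3, a p53 target, at 73.2 CPM. High cell 12 was the highest for Cdkn1b at 110 CPM and Nfya at 81.0 CPM and the lowest for Cdt1 at 0.736 CPM. High cell 18 was the lowest for Ensa at 0 and Skp2 at 0.464 CPM. High cell 21 had no count of Rap1b (0), a small GTPase, and the most Gtf2f1 at 447 CPM. High cell 16 had the least Uqcrc2, a subunit of respiratory complex III, at 43.4 CPM, and high cell 7 the most Mpo at 4.98 CPM.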

How the results depend on the processing

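No paired analysis was possible because each cell has its own number and none is shared between groups. No difference, count or median here had a test. The medians of the mitosis lists together and of the entry, spindle, kinetochore and anaphase-promoting complex lists stayed above 0 in every setting run. Smaller medians could turn sign. Genes without overlap, 12 higher and 4 lower, numbered 123 and 72 with 4 cells in each group, 2 and 0 with 8, 44 and 21 without cells 16 and 12, and 19 to 31 and 6 to 15 with 1 cell left out. A filter of 10 counts in 10 cells gave 7 higher, and Klf1 at 100 CPM gave 7 lower. Genes differing by 1 or more, 2104 higher and 971 lower, numbered 926 and 417 with a pseudocount of 10 CPM, and the lower ones 1489 with no filter and 623 with 10 counts in 10 cells. With that pseudocount the medians were 0.97 (entry), 0.93 (spindle) and 0.24 (chaperones). With 8 cells in each group they were 0.79 (entry) and 0.22 (chaperones), and with 4 cells 2.19 (kinetochore). Ranking all 24 cells gave 1.63 (mitosis lists together), 2.44 (entry), 1.26 (CDK inhibitors), 0.93 (erythroid transcription), 0.32 (oxidative phosphorylation) and 0.65 (p53 targets). Ranking without Plk1 gave 0.91 (entry), 0.96 (spindle) and 0.27 (chaperones), ranking without Aurka 0.94 (entry), and Klf1 at 100 CPM 0.16 (chaperones). Within plate column 1, 2 cells a group, the medians were 2.76 (entry), -0.83 (transcription factors), 2.85 (anaphase-promoting complex), 0.87 (G1-S), 1.40 (CDK inhibitors), 1.07 (erythroid transcription), 1.98 (p53 targets) and -2.42 (myeloid). Within column 3, where 4 high cells faced low cell 3 alone, they were 1.56 (mitosis lists together), 4.44 (kinetochore), -0.83 (erythroid transcription), -2.77 (early progenitor), 0.087 (chaperones), -4.14 (myeloid) and 1.13 (hepatocyte). With 1 cell left out the mitosis lists together gave 0.75 to 1.18, the chaperones 0.17 to 0.68, the S phase genes -0.36 to 0.02, the G1-S genes -0.58 to -0.20 and the p53 targets -0.49 to 0.33. The cause of these moves was not tested, beyond the fewer genes or cells that some settings leave. TMM and DESeq2 factors put the median of all genes at 0.26 and 0.16, and the pseudocount of 10 CPM at 0.098. The floor of 3 counts is 1.39 to 2.64 CPM, below which levels could not be read.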

Other observations

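Members at the ends of the other lists are given here as values. In the erythroid transcription list Stat5b, a transducer of erythropoietin signals, had the highest difference at 3.48 and was detected in 6 high and 2 low cells. Zbtb7a, a repressor of fetal globin genes, had the lowest at -0.82. In the red cell maturation list the highest was Tfrc, the transferrin receptor that the sort stained as CD71, at 2.04 with detection in 5 high and 3 low cells. The lowest was Rhag, a membrane channel of red cells, at -1.38.

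In the ribosome assembly list Rrs1 stood at 1.76 and Pes1 at -0.25, both factors of the large subunit. Slc2a1, the glucose transporter GLUT1, differed by 2.02 and Hk2, a hexokinase, by -1.04. Ndufb5 of respiratory complex I differed by 0.86 and Uqcrc2 of complex III by -0.66. Ier2, an immediate early gene, differed by 2.01 and Jund, an AP-1 subunit, by -0.53. Atm differed by 2.23 and Phlda3 by -1.51.

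Only 9 of 20 megakaryocyte, 5 of 19 myeloid and 4 of 12 hepatocyte genes passed the filter, and their medians were 0.20, -0.22 and -0.64. The sign of each turned with 1 cell left out: the medians ran from -0.35 (without high cell 16) to 0.70 (without low cell 5), from -0.91 (without high cell 16) to 0.68 (without low cell 22) and from -0.85 (without high cell 6) to 0.43 (without low cell 10). Gp9 differed by 2.66 and Rap1b by -1.02. Cst7, a protease inhibitor, differed by 0.47 and Mpo by -3.07. Trf, which encodes transferrin, differed by 0.71 and Krt18, an epithelial keratin, by -1.27. No gene of the macrophage, mast cell, lymphoid or endothelial and stromal lists passed.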
